A study of Mus musculus with 36 samples.

Results

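Runx2 and 8 further transcription factor genes of the skeleton and the RUNX family (Runx1, Runx3, Cbfb, Sp7, Dlx5, Msx2, Twist1 and Twist2) were followed through RNA-seq libraries of mouse bone cells. The 9 genes were chosen by name, out of 30205 genes with counts, and each value is the sum over the annotated transcripts of a gene. The series holds 36 libraries, 6 in each of 6 groups formed by genotype and cell type. The genotypes are a wild-type control (WT) and Mir324-null, which lacks the microRNA gene Mir324, and all animals were 20 weeks old. How the null allele was made, and whether the replicates of a group come from separate animals, is not given in the sources used here, so p-values measure the spread between these libraries. Bone marrow was first kept for 3 days with the macrophage growth factor M-CSF at 100 ng/mL. The resulting bone marrow macrophages (BMM) then received M-CSF at 30 ng/mL for 5 days, and the osteoclast cultures (OC) were grown over the same 5 days with that M-CSF and with RANK-L, the cytokine that induces osteoclasts, at 50 ng/mL. The bone-forming osteoblasts (OB) were kept for 18 days in osteogenic medium with 2 mM β-glycerophosphate and 50 µg/mL ascorbic acid.

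The libraries held 14118972 to 26347581 estimated counts each. Summed markers, as normalised CPM (counts per library scaled to a common total), were checked against the labels. The 8 osteoblast markers summed to 54878 to 78867 in WT OB and 96777 to 116820 in null OB. The OB libraries also held macrophage RNA, with a sum over 7 markers of 12183 to 15405 in WT and 6665 to 9774 in null, osteoclast RNA, with a sum over 8 markers of 3951 to 5049 in WT and 4749 to 7329 in null, and cartilage RNA, with a sum over 5 markers of 216 to 440 in WT and 665 to 2198 in null. The macrophage and cartilage sums did not overlap between genotypes, and the osteoclast sums did. The null libraries labelled osteoclast went against that label. Their 8 osteoclast markers summed to 347 to 726 against 29505 to 32065 in WT OC, with Calcr at no more than 3 counts. That sum still lay above the 231 to 303 of null BMM, scaled within each cell type. The null libraries labelled osteoclast are therefore called the null libraries labelled OC, or null OC. Lymphocyte markers were low throughout, but higher in null without overlap in the marrow groups, at 1.61 to 4.03 in null BMM against 0.607 to 0.900 in WT BMM and 1.405 to 2.85 in null OC against 0.642 to 0.886 in WT OC. The deleted gene, Mir324, was not analysed here and gives no check of the genotypes.

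RUNX proteins are transcription factors that bind DNA as a pair with CBFB, a partner that does not bind DNA itself and that strengthens the binding. RUNX2 is required for cells to become osteoblasts, and SP7 (osterix), a zinc finger factor, acts downstream of it. RUNX1 and RUNX3 are best known in blood cells, including macrophages, and are also made in cartilage and bone. DLX5 and MSX2 are homeodomain proteins that act on osteoblast genes, and TWIST1 and TWIST2 are basic helix-loop-helix proteins that can hold back RUNX2. Mir324 gives mature microRNAs from both arms of its hairpin, which repress messenger RNAs that pair with their seed. Each Runx gene has a distal promoter and a proximal promoter that start different messenger RNAs.

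The mature sequences and the places in the 9 genes that match their seeds are shown because the null cells lack these microRNAs. The seed, bases 2 to 8, is in capitals in the RefSeq sequences.

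mmu-miR-324-5p: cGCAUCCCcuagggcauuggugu

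mmu-miR-324-3p: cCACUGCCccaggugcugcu

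Seed matches were searched on the transcribed strand of 1 annotated 3′ UTR a gene, the longest (GENCODE M21, GRCm38). The match of the 5p seed, GGGATGC, occurs in 8.257% of 20830 genes with such a UTR, and that of the 3p seed, GGCAGTG, in 14.22%. Runx2 holds 1 match to the 5p seed, in the 3904-base UTR of Runx2-203 at chr17:44605371-44605400 (minus strand). Runx3 holds 1 match to the 3p seed at chr4:135175915-135175944 and Cbfb holds 2, at chr8:105216080-105216109 and chr8:105216787-105216816, all on the plus strand. No match was found in those UTRs of Runx1, Sp7, Dlx5, Msx2, Twist1 or Twist2. In the windows of 30 bases the match is in capitals.

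Runx2, 5p match: aagggaatagagGGGATGCattagtgccta

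Runx3, 3p match: ggggccagagctGGCAGTGgctcccagagc

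Cbfb, first 3p match: ttcatggcctgaGGCAGTGaagacgtcacc

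Cbfb, second 3p match: tattaaactggaGGCAGTGataaatcagct

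The RUNX core motif, TGTGGT or ACCACA on the other strand, was searched on both strands in RefSeq promoter windows of 300 bases (GRCm38.p6, 250 bases before the start to 50 after), where 7 of the 9 genes had a window. It occurs in 16.76% of 32851 windows. The window of Runx2 holds 3 matches, and the upstream windows of Runx1 and Runx3 hold 2 each. None was found in the proximal windows of Runx1 and Runx3 or in those of Cbfb, Msx2, Twist1 and Twist2. A run of 18 bases with 2 copies of the core is shared by the upstream windows of all 3 Runx genes, and is shown because the use of these starts is compared among groups. It occurs in 4 of the 32851 windows, these 3 among them. Counted from the RefSeq start, the run begins at position 26 in Runx1 and 21 in Runx2, after the start. In Runx3 it begins at -136, before the start. The run is in capitals.

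Runx1, upstream promoter, chr16:92826026-92826055, minus strand: tcataaaCAACCACAGAACCACAAGttggg

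Runx2, upstream promoter, chr17:44814584-44814613, minus strand: tcacaaaCAACCACAGAACCACAAGtgcgg

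Runx3, upstream promoter, chr4:135120502-135120531, plus strand: ggtccctCAACCACAGAACCACAAGgccag

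The level of each gene is given in TPM, the deposited relative abundance of its transcripts, a scale per transcript length on which genes may be compared. Runx2 (chromosome 17, 44495987 to 44814797, minus strand, GRCm38) was highest in null OB at 13.6 TPM ± 1.21 (SD, n = 6) and next in WT OB at 8.12 ± 0.864. It followed in WT OC at 1.73 ± 0.428, null OC at 1.31 ± 0.360, null BMM at 0.904 ± 0.260 and WT BMM at 0.726 ± 0.155. The libraries of null OB, from 12.1 to 15.2 TPM, did not overlap those of WT OB, from 7.10 to 9.37, and WT OB lay above all marrow libraries. From WT OC downwards, each group overlapped the next in the order.

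Runx1 (chromosome 16, 92601466 to 92826149, minus strand) was the most abundant of the 3 Runx genes in every group by mean TPM. It stood at 54.0 TPM ± 6.84 in null OB, 37.8 ± 2.57 in WT BMM, 28.9 ± 2.12 in WT OB, 25.5 ± 2.12 in WT OC, 20.7 ± 4.99 in null OC and 19.5 ± 3.09 in null BMM (SD, n = 6). The 6 libraries of null OB ran from 42.4 to 61.5 TPM, above every other library, and WT BMM ran from 35.0 to 41.0, above the 4 remaining groups, each of which overlapped the next in the order. By normalised CPM, which is not per length, null OB was again highest and WT OC was lowest. Runx3 (chromosome 4, 135120652 to 135177990, plus strand) stood at 8.51 TPM ± 1.81 in null OB and 6.56 ± 1.33 in WT OB, groups that overlapped. In the marrow groups it stood at 2.16 ± 0.572 in WT BMM, 1.93 ± 0.572 in null OC, 1.20 ± 0.203 in null BMM and 0.580 ± 0.169 in WT OC. Of these, WT BMM and null OC overlapped, while null BMM lay below null OC and WT OC lay below null BMM in every library.

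Cbfb (chromosome 8, 105170674 to 105217989, plus strand), the common partner, had group means from 23.9 TPM ± 5.27 in null OC to 40.02 ± 3.49 in null OB (SD, n = 6). Its order among groups changed with the scaling: by normalised CPM, WT OB rather than null OB was highest. Sp7 (chromosome 15, 102356606 to 102367182, minus strand) stood at 21.6 TPM ± 9.97 in null OB and 11.98 ± 3.46 in WT OB, and no marrow library held more than 2 counts. Dlx5 (chromosome 6, 6877805 to 6882085, minus strand) stood at 13.8 TPM ± 3.24 in null OB and 10.1 ± 3.10 in WT OB. Msx2 (chromosome 13, 53466884 to 53473074, minus strand) was the lowest of the 9 in osteoblasts at 0.481 TPM ± 0.2996 in WT and 0.241 ± 0.0984 in null, from 5 to 26 counts a library, and did not pass the filter on low counts for any test. Twist1 (chromosome 12, 33957671 to 33959829, plus strand) stood at 6.33 TPM ± 1.56 in WT OB and 5.24 ± 0.764 in null OB, and Twist2 (chromosome 1, 91801461 to 91848028, plus strand) at 6.42 ± 1.27 and 4.19 ± 2.43.

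**Figure D1:**
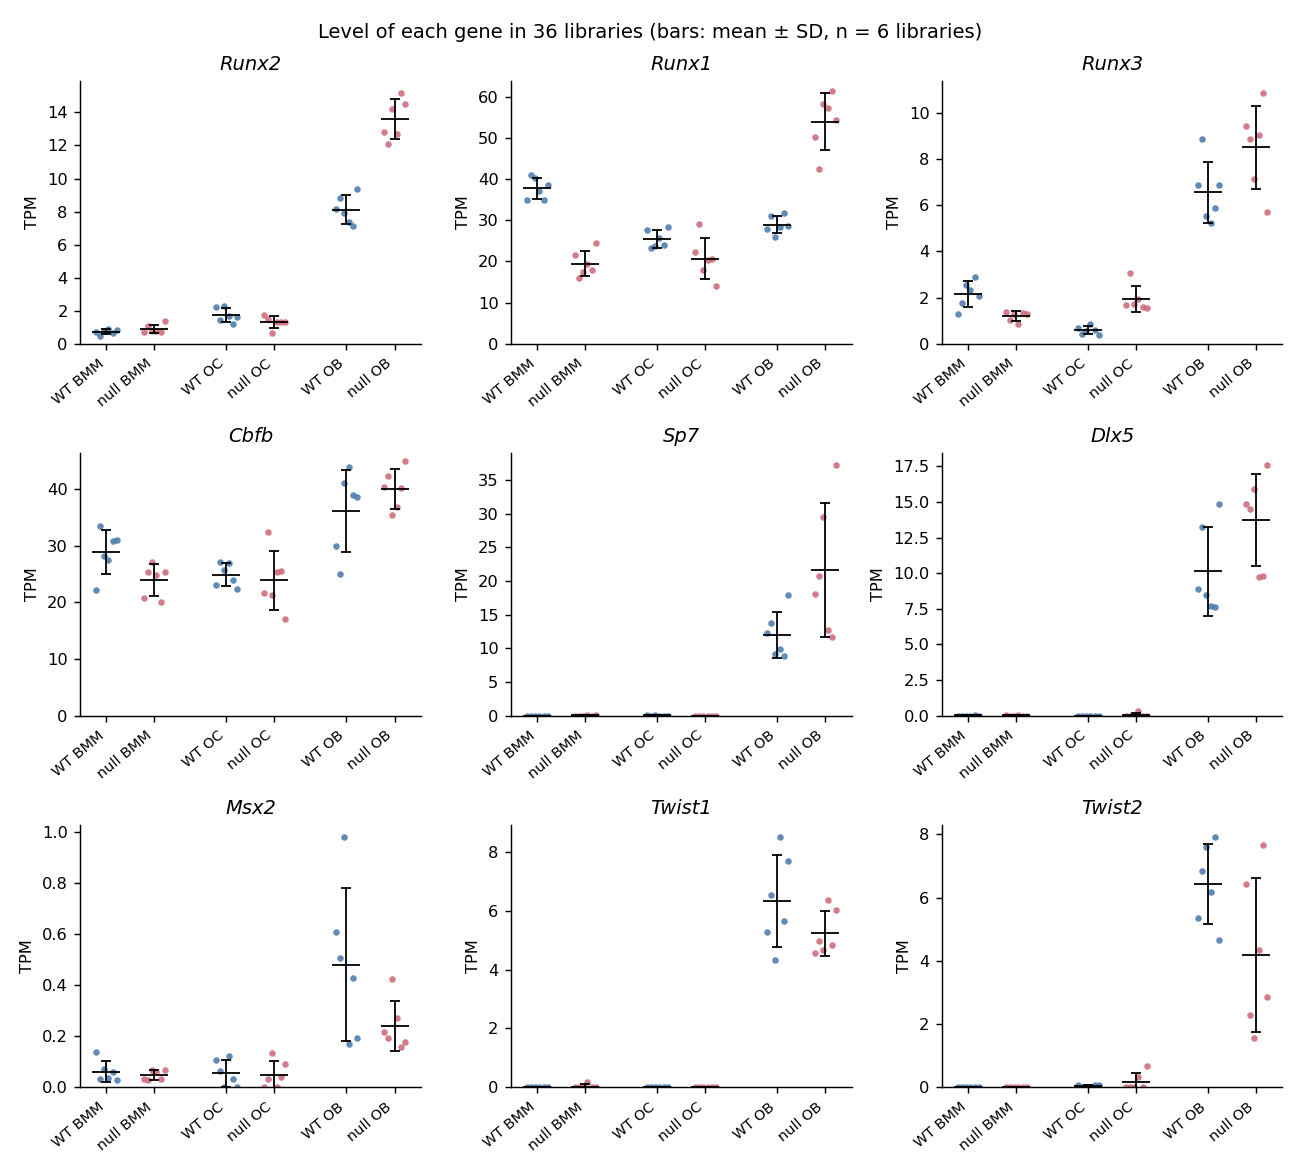
Level of the 9 genes in TPM (vertical axis, from 0) in each of 36 libraries (points; blue WT, red null), with the mean ± SD of 6 libraries in black. Runx2 in null OB lies between 12.1 and 15.2 TPM, above all WT OB libraries, and Sp7, Dlx5, Twist1 and Twist2 lie near 0 in all marrow groups.

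The comparison of WT osteoblasts with the WT marrow cells asked how far each gene marks the bone-forming lineage. Runx2, Runx3, Cbfb, Sp7, Dlx5, Twist1 and Twist2 were higher in WT OB than in WT BMM, and these genes and Runx1 were higher in WT OB than in WT OC. A gene was called where its adjusted p in edgeR's quasi-likelihood test was under 0.05. Of the 8 genes tested, 7 were called against WT BMM, where 76.8% of all 14268 genes were (41.5% higher and 35.3% lower in OB). Against WT OC, 8 were called, where 77.9% of all genes were (41.3% higher and 36.7% lower), so most genes differ between these cell types. In bulk RNA, fewer cells of a type and less RNA per cell cannot be told apart. The WT OB libraries also held osteoclast and macrophage RNA. Macrophage markers summed to 12183 to 15405 CPM there, beside 37293 to 48167 in WT BMM and 12284 to 14649 in WT OC, scaled within each cell type. The part of that RNA in the WT OB levels was not tested.

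Runx2 ran from 20.6 to 32.0 normalised CPM in WT OB (median 23.5), from 1.75 to 3.02 in WT BMM (median 2.69) and from 4.63 to 5.72 in WT OC (median 5.26), with no overlap between any of the 3 groups. The log2 fold change of Runx2 was 3.37 ± 0.15 (SE) against BMM and 2.30 ± 0.14 against OC. Runx3 was higher in WT OB by 1.57 ± 0.18 (SE) on the log2 scale against BMM and by 3.68 ± 0.20 against OC. Cbfb was higher by 0.54 ± 0.11 and 0.78 ± 0.11, the first of which was 0.29 with an offset for the average length of the transcripts in each library.

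Sp7, Dlx5, Twist1 and Twist2 were at or next to 0 counts in marrow cells. Sp7 had 0 counts in all 6 WT BMM libraries, so its mean of 22.5 CPM in WT OB was at least 129-fold higher than 3 counts in a library. By the same bound, Twist1 was at least 35.8-fold higher in WT OB than in WT BMM and at least 37.3-fold higher than in WT OC, Twist2 was at least 29.1-fold higher than in WT BMM, and Dlx5 was at least 50.7-fold higher than in WT OC. Single null libraries held a few counts: null OC replicate 4 had 8 counts of Dlx5 and 7 of Twist2, null OC replicate 6 had 8 of Twist2, and null BMM replicate 4 had 4 of Twist1. Osteoblast markers summed to 53.5 to 268 CPM in null OC and 48.6 to 121 in null BMM, against 8.58 to 11.1 in WT OC and 7.31 to 26.2 in WT BMM. Null OC replicate 6 had the highest sum. Null OC replicate 4 stood at 90.9, below replicate 1 at 100.3, which had 0 counts of Dlx5 and Twist2. Null BMM replicate 4 stood at 58.0, below null BMM replicate 5 at 121. The part of osteoblast RNA in those counts was not tested.

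Runx1 did not separate WT osteoblasts from WT macrophages. It ran from 88.5 to 95.7 CPM (median 91.4) in WT OB and from 77.2 to 94.96 (median 88.4) in WT BMM, which overlapped. The log2 fold change was 0.06 ± 0.07 (SE) with an edgeR adjusted p of 0.451. That result turned with the treatment of length: it was -0.43 (adjusted p = 0.000196) with the average length offset, and 0.25 (adjusted p = 0.0012) with an offset that takes out the trend with transcript length and GC content. Against WT OC, which ran from 54.5 to 67.4 CPM, Runx1 was higher by 0.64 ± 0.07 on the log2 scale, and the groups did not overlap. That difference was 0.27 with the average length offset.

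Osteoblast libraries without Mir324 held more Runx1 and Runx2 RNA and less Twist1 RNA than WT. Of 8 genes tested, 2 were called higher and 1 lower in null OB, or 37.5%, beside 32.5% of all 13607 genes, a share near the background. Runx3, Cbfb, Sp7, Dlx5 and Twist2 were not called.

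Runx1 ran from 130.4 to 162 CPM (median 146) in null OB and from 89.8 to 96.6 (median 93.1) in WT OB. Every null library was above every WT library. The log2 fold change was 0.65 ± 0.06 (SE), with an edgeR adjusted p of 5.41e-06, rank 31 by p among all genes tested. Runx2, the gene with a 5p seed match, ran from 34.2 to 42.8 CPM (median 36.5) in null OB and from 20.9 to 32.3 (median 23.9) in WT OB. These groups did not overlap either. Its log2 fold change was 0.55 ± 0.11, with an edgeR adjusted p of 0.00163.

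Sp7 ran from 19.9 to 60.2 CPM (median 33.0) in null OB and from 17.1 to 33.4 (median 21.5) in WT OB, with overlap. Its log2 fold change of 0.66 ± 0.29 (SE) was as large as that of Runx1 but missed the threshold, with an edgeR adjusted p of 0.099 and a 95% interval from 0.04 to 1.29. Without null OB replicate 5, the lowest Sp7 library of that group, it was 0.79 with an adjusted p of 0.0477, and in the fit of all 36 libraries 0.67 with an adjusted p of 0.0329. In WT OB the replicates 2 and 6 held the 2 highest values of Runx2, of Sp7 and of Dlx5. In null OB replicate 5 held the highest value of Runx2 and the lowest of Sp7, so the genes did not share an order there.

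Dlx5 ran from 7.34 to 12.8 CPM (median 11.1) in null OB and from 6.59 to 12.4 (median 7.40) in WT OB, a log2 fold change of 0.26 ± 0.19 (SE). Runx3 and Cbfb, whose UTRs hold 3p seed matches, had log2 fold changes of 0.18 ± 0.16 and -0.08 ± 0.12, with edgeR adjusted p of 0.44 and 0.641 and 95% intervals from -0.17 to 0.53 and from -0.33 to 0.17.

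Twist1 ran from 3.95 to 5.60 CPM (median 4.44) in null OB and from 4.27 to 8.72 (median 6.07) in WT OB, with overlap. Its log2 fold change was -0.46 ± 0.16 (SE), with an edgeR adjusted p of 0.0429. The call was lost when WT OB replicate 2, 4, 5 or 6 or null OB replicate 1, 2, 3 or 5 was left out, with values from -0.55 to -0.35 over the 12 such fits, and in the fit of all 36 libraries (adjusted p = 0.246). Twist2 ran from 1.08 to 5.49 CPM (median 2.61) in null OB and from 3.67 to 6.42 (median 5.24) in WT OB. Its log2 fold change of -0.77 ± 0.32 missed the threshold (edgeR adjusted p = 0.0805), and without null OB replicate 5, the highest of its group, it was -1.04 (adjusted p = 0.015). DESeq2 called it at an adjusted p of 0.0488.

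Transcript length went with the genotype difference in osteoblasts. The log2 fold change and the mean transcript length had a Spearman correlation of 0.549 over 13607 genes in osteoblasts, -0.197 over 11925 genes in macrophages and 0.014 over 12121 genes in the RANK-L cultures. The genes called higher, Runx2 and Runx1, stand at the 87.8 and 83.2 percentiles of length. The gene called lower, Twist1, stands at the 25.1 percentile. Of the genes not called, Runx3 stands at the 77.8 percentile, Sp7 at 61.4, Cbfb at 46.1, Dlx5 at 19.1 and Twist2 at 17.3. Dlx5, though short, had a positive log2 fold change of 0.26. With the length and GC offset, Runx1 kept its call at 0.47 (adjusted p = 5.88e-05). Runx2 fell short at 0.33 (adjusted p = 0.0506) and Twist1 at -0.37 (adjusted p = 0.12), and 2289 genes in place of 4420 were called. Beside these differences, the sum of osteoblast markers was higher and that of macrophage markers lower in null OB, with no overlap between genotypes. Of 8 osteoblast markers, 5 were called higher and 0 lower, while Bglap, Bglap2 and Alpl were not called. Of 7 macrophage markers, 0 were called higher and 5 lower, and of 8 osteoclast markers, 3 higher and 0 lower. Among all genes, 15.5% were called higher and 16.9% lower. The part of these marker differences in the differences above was not tested.

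**Figure D2:**
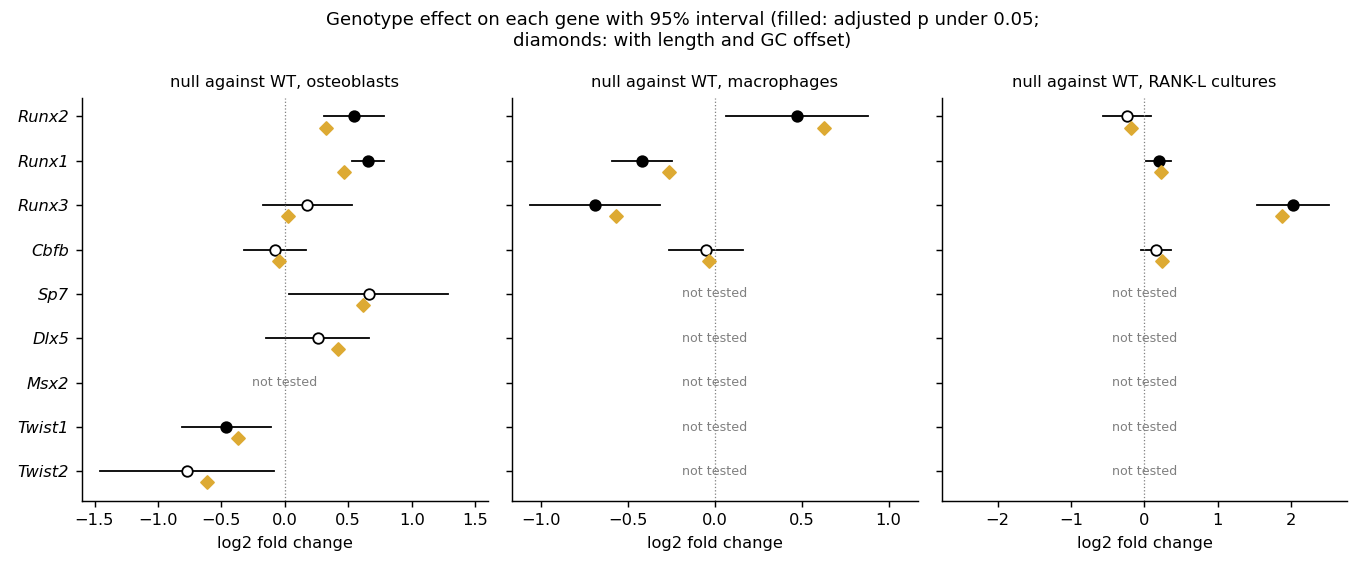
Log2 fold change of null against WT (horizontal axis) for the 9 genes in 3 cell types, with the 95% interval as a line, filled points for adjusted p under 0.05 and diamonds for the value with the length and GC offset. Runx1 is above 0 in osteoblasts at 0.65 and below 0 in macrophages at -0.42, and Runx3 is at 2.03 in the RANK-L cultures.

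In macrophages without Mir324, Runx1 and Runx3 fell and Runx2 rose. Of 4 genes tested, 3 were called, beside 52.3% of 11925 genes. Runx1 ran from 51.3 to 70.3 CPM (median 65.8) in null BMM and from 74.5 to 92.0 (median 85.6) in WT BMM, with no overlap. Its log2 fold change was -0.42 ± 0.08 (SE), with an edgeR adjusted p of 0.000458, and it was -0.26 (adjusted p = 0.0148) with the length and GC offset and -0.80 (adjusted p = 5.2e-07) with the average length offset. Runx3 ran from 2.55 to 3.82 CPM (median 3.52) in null BMM and from 3.48 to 6.997 (median 5.55) in WT BMM, with overlap, and its log2 fold change was -0.69 ± 0.18 (adjusted p = 0.00377).

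Runx2 in macrophages was close to the limit of the data, with 34 to 76 counts a library. It ran from 2.45 to 4.20 CPM (median 3.34) in null BMM and from 1.69 to 2.93 (median 2.60) in WT BMM, with overlap. The log2 fold change was 0.47 ± 0.19 (SE) with an edgeR adjusted p of 0.0492. The call was lost when WT BMM replicate 2, 3, 5 or 6 or null BMM replicate 1, 3, 4, 5 or 6 was left out (0.38 to 0.55), with RLE scaling (adjusted p = 0.0511) and without the filter (adjusted p = 0.0857). Cbfb differed by -0.05 ± 0.10 (adjusted p = 0.688). Marker sums also separated these groups without overlap. Macrophage markers stood at 50144 to 57661 CPM in null BMM and 37293 to 48167 in WT BMM. Osteoclast markers stood at 231 to 303 and 85.4 to 121, and neutrophil markers at 6.32 to 16.6 and 0.138 to 0.380. Single markers went both ways. Of 7 macrophage markers tested, 3 were called higher and 3 lower in null, beside 27% and 25.4% of all genes. Of 5 osteoclast markers tested, 2 were called higher and 2 lower. Of 7 neutrophil markers, 5 held at most 3 counts in every null BMM library. The part of these marker differences in the Runx differences was not tested.

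In the cultures given RANK-L, Runx3 was higher in null than in WT, and Runx1 was slightly higher. Of 4 genes tested, 2 were called, beside 65.6% of 12121 genes. Runx3 ran from 4.28 to 7.85 CPM (median 4.92) in null OC and from 0.886 to 1.92 (median 1.21) in WT OC, with no overlap. Its log2 fold change was 2.03 ± 0.23 (SE), with an edgeR adjusted p of 7.46e-07. Runx1 was higher by 0.20 ± 0.08 (adjusted p = 0.0422), from 56.9 to 77.2 CPM in null OC and from 55.4 to 68.4 in WT OC, with overlap. That call was lost when WT OC replicate 1, 2, 3 or 5 or null OC replicate 1, 2 or 4 was left out (0.16 to 0.24), and the direction turned to -0.10 with the average length offset. Runx2 at -0.24 ± 0.16 and Cbfb at 0.15 ± 0.10 were not called, but Cbfb was with the length and GC offset (0.24, adjusted p = 0.0253). Osteoclast markers were lower in null OC by the sums given above, and the sum of macrophage markers was higher, at 49434 to 59170 CPM against 12284 to 14649. Of 7 macrophage markers, 5 were called higher and 1 lower, beside 32.4% and 33.1% of all genes. Of 8 osteoclast markers, 0 were called higher and 8 lower. The part of these marker differences in the Runx3 difference was not tested.

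In WT marrow cells given RANK-L, Runx2 was higher and Runx1 and Runx3 were lower, while the call of Cbfb depended on single libraries. In WT OC against WT BMM, 4 of 4 tested genes were called, beside 60.5% of 12661 genes (30.4% higher and 30.1% lower). Runx2 rose from 1.73 to 3.00 CPM in WT BMM to 4.57 to 5.67 in WT OC, a log2 fold change of 1.06 ± 0.17 (SE). Runx3 fell from 3.56 to 7.21 CPM to 0.864 to 1.88, a log2 fold change of -2.11 ± 0.21. Runx1 fell from 76.1 to 94.6 CPM to 53.9 to 66.7, a log2 fold change of -0.58 ± 0.08. The groups did not overlap for any of these 3 genes. Cbfb, at -0.24 ± 0.10 (edgeR adjusted p = 0.0356), overlapped, and its call was lost in 8 of 24 fits that left out 1 library (-0.29 to -0.22), namely those without WT BMM replicate 2, 3, 5 or 6 or WT OC replicate 1, 3, 5 or 6.

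In null cells, 1 of 4 genes was called between OC and BMM, beside 12.9% of 12661 genes (6.78% higher and 6.07% lower). That background of 1628 genes ran from 810 to 2143 with 1 library left out, and was 810 to 1046 without null BMM replicate 2, 3 or 4 or null OC replicate 3. Runx3 ran from 4.17 to 7.69 CPM in null OC and from 2.59 to 3.91 in null BMM. The groups did not overlap, and the log2 fold change was 0.62 ± 0.20 (SE, edgeR adjusted p = 0.0381), the opposite direction to WT. The call was lost when replicate 2, 3 or 4 of either null group was left out (0.48 to 0.68) and with the length and GC offset (0.49, adjusted p = 0.0975). Runx2 at 0.36 ± 0.17, Runx1 at 0.05 ± 0.08 and Cbfb at -0.03 ± 0.10 were not called. Of 8 osteoclast markers, 6 were called higher and 0 lower in null OC than in null BMM, with a median log2 fold change of 1.65. The difference between genotypes was itself tested as an interaction, in which 3 of 4 genes were called beside 51.4% of all genes (25.3% higher and 26.1% lower). The response to RANK-L was higher in null than in WT by 2.73 ± 0.29 for Runx3 (adjusted p = 5.95e-09) and by 0.63 ± 0.12 for Runx1 (adjusted p = 5.47e-05). It was lower for Runx2, by -0.70 ± 0.24 (adjusted p = 0.0165), which was not called with the average length offset (-0.66, adjusted p = 0.0902).

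**Figure D3:**
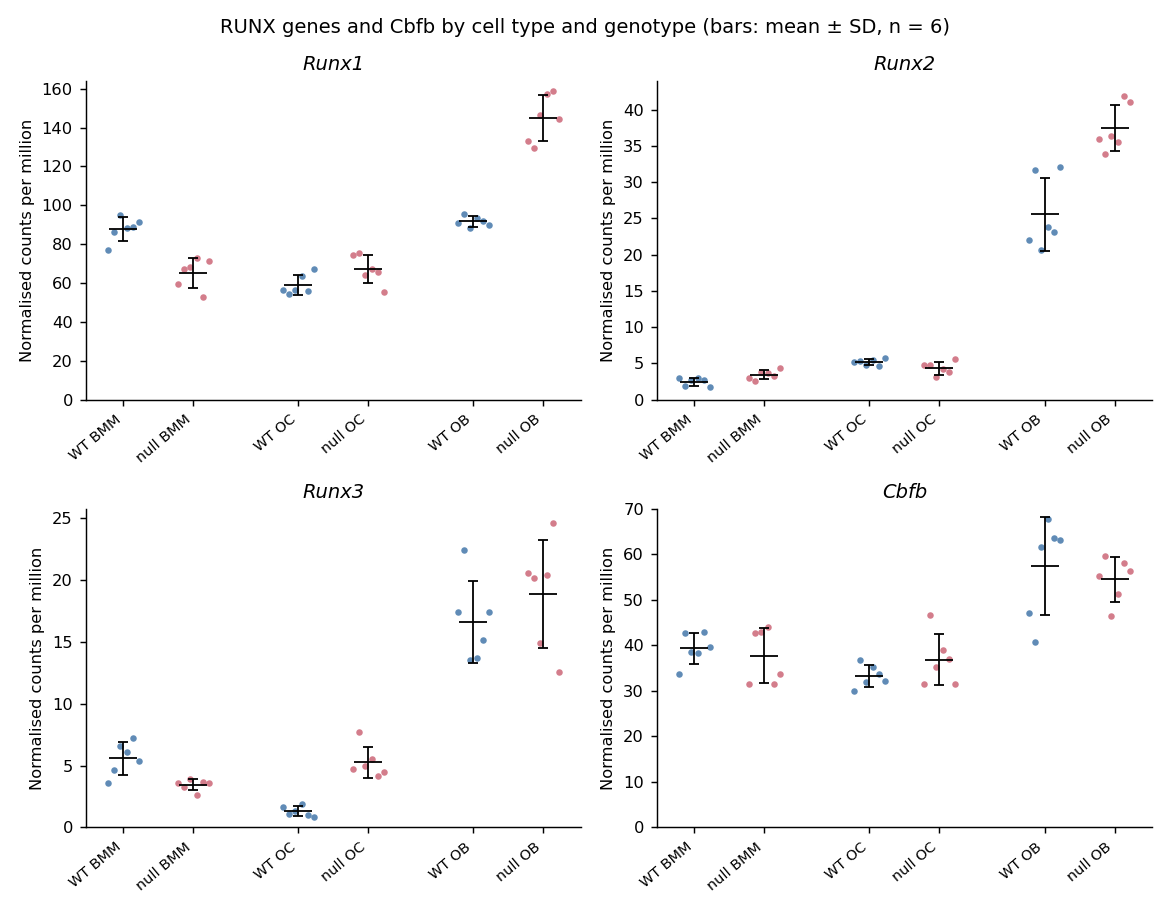
Normalised CPM (vertical axis, from 0) of Runx1, Runx2, Runx3 and Cbfb in 36 libraries scaled together (points; blue WT, red null), with the mean ± SD of 6 libraries in black. Runx1 is highest in null OB (129.3 to 159 CPM), and Runx3 is lower in WT OC than in every other group, at 0.872 to 1.89 CPM.

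The genotype difference was compared between cell types for the 4 genes that passed the filter in each. Against the difference in OC, 3 of 4 were called, beside 55.2% of 14268 genes (27.8% higher and 27.4% lower). The difference in OB exceeded that in OC by 0.80 ± 0.19 (SE) on the log2 scale for Runx2 and by 0.47 ± 0.11 for Runx1, and lay below it for Runx3 by -1.84 ± 0.27. With the length and GC offset, these were 0.52 (adjusted p = 0.02) for Runx2 and 0.25 (adjusted p = 0.0277) for Runx1, and with the average length offset 0.82 for Runx1. Against the difference in BMM, 2 of 4 were called, beside 45.9% of all genes (21.6% higher and 24.3% lower). Runx1 differed by 1.09 ± 0.11 (edgeR adjusted p = 1.11e-10), since it was higher in null OB and lower in null BMM, and Runx3 differed by 0.88 ± 0.25. Runx2 differed by 0.09 ± 0.20 (adjusted p = 0.767), with a 95% interval from -0.32 to 0.49. Cbfb was called in neither, at -0.22 ± 0.15 and -0.01 ± 0.15, but was in the first without WT OB replicate 2 (-0.33).

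Transcripts of the Runx genes were grouped by annotated start, and the share of a gene's TPM from the most upstream group was taken in each library. The promoter windows around the upstream starts hold the shared run printed above, at the positions given there. The shares are estimates, since kallisto-style counts divide reads among transcripts with common exons. The 18 comparisons were each tested with an exact two-sided permutation test over the libraries (smallest possible p 0.002165) and adjusted together.

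Runx1 took a smaller share from its upstream start in osteoblasts. The share ran from 42.4% to 50.8% (median 48.2%) in WT OB, from 50.5% to 60.7% (median 56.1%) in WT OC and from 55.1% to 67.4% (median 66.0%) in WT BMM. WT OB lay below WT BMM by -15.9 points (exact permutation p = 0.002165, adjusted p = 0.03896) and below WT OC by -8.26 points (exact permutation p = 0.004329, adjusted p = 0.03896). The size of that difference rested on short transcripts. Among transcripts of at least 1000 bases it was -6.16 points against BMM (adjusted p = 0.166) and -3.14 points against OC (adjusted p = 0.551). As a share of estimated counts, it was -10.1 points against BMM (adjusted p = 0.0584). With fewer libraries the exact test allows fewer values of p, and its smallest possible p is larger. The adjusted p against BMM missed the threshold without WT OB replicate 1, 2, 3, 4 or 5 (-17.6 to -14.8 points over the 12 such tests). Every WT OB library lay below every WT BMM library, so p was the smallest possible each time and these misses say nothing about stability. Against OC it did so without replicate 1, 2, 3, 4 or 5 of either group (-9.36 to -7.19 points).

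No difference between genotypes in the Runx1 share passed the test. The share was 46.7% ± 1.45 in null OB against 47.8% ± 2.86 in WT OB (SD, n = 6, exact permutation adjusted p = 0.7792). It was higher in null by 5.98 points in BMM and by 5.73 points in OC (exact permutation p = 0.1061 and 0.1039, adjusted p = 0.3182 for both). In osteoblasts both long transcripts were higher in null. The distal Runx1-201 stood at 21.7 TPM ± 1.69 in null OB and 12.3 ± 0.769 in WT OB, and the proximal Runx1-202 at 19.4 ± 2.75 and 11.6 ± 0.703. In macrophages, short transcripts account for much of the TPM difference. Runx1-204, of 336 bases, stood at 9.08 TPM ± 2.40 in WT BMM and 2.30 ± 1.92 in null BMM, and Runx1-203, of 1985 bases, at 4.61 ± 1.47 and 0.240 ± 0.314. The long Runx1-201, of 5861 bases, stood at 12.9 ± 1.19 and 9.82 ± 1.66. With the average length offset, the log2 fold change of Runx1 in macrophages was -0.80 in place of -0.42.

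Runx2 shares were spread widely. The upstream share was 64.8% ± 9.58 in null OB and 54.0% ± 14.4 in WT OB (SD, n = 6), a difference of 10.8 points (exact permutation adjusted p = 0.4119). The difference had the other sign in OC, at -21.8 points (28.4% ± 22.3 in null, 50.2% ± 16.1 in WT, exact permutation p = 0.08658, adjusted p = 0.3182), and in BMM, at -12.6 points (34.4% ± 8.05 in null, 46.9% ± 33.6 in WT, exact permutation adjusted p = 0.7792). In WT BMM the share ran from 3.78% to 100% over 34 to 56 counts a library, so no share can be set at that depth. The upstream transcript Runx2-202, of 5898 bases, ran from 5.51 to 7.84 TPM (median 6.86) in null OB and from 2.06 to 5.60 (median 2.67) in WT OB. The proximal Runx2-203, of 6463 bases, ran from 1.96 to 3.80 TPM in null OB and from 1.88 to 2.93 in WT OB. The ranges of Runx2-203 overlapped, and those of Runx2-202 overlapped at their edge. Another upstream transcript, Runx2-204, of 2316 bases, was low but did not overlap, at 0.761 TPM ± 0.183 in null OB and 0.101 ± 0.0725 in WT OB. Runx3 came almost wholly from its upstream start, with group means from 93.4% to 99.4%, and the low value of 60.5%, in WT OC replicate 5, comes from a group with 18 to 34 counts of the gene a library.

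**Figure D4:**
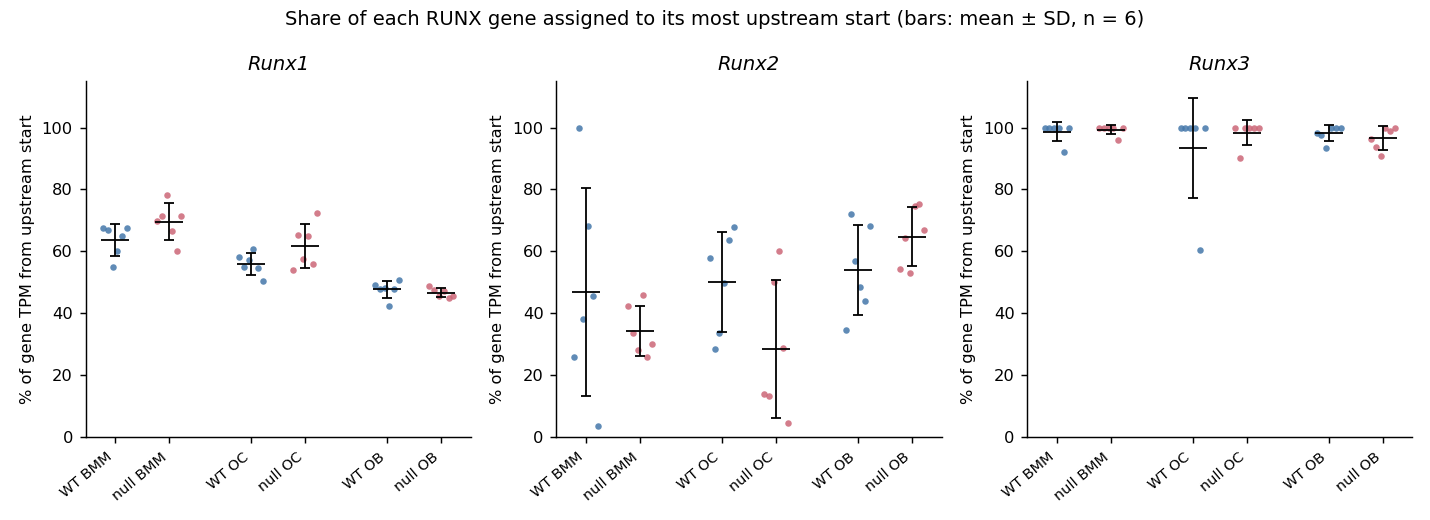
Share of TPM (percent, vertical axis) assigned to the most upstream start of Runx1, Runx2 and Runx3 in each library (points; blue WT, red null), with the mean ± SD of 6 libraries in black, whose bars can pass 100%. Runx1 lies at 42.4% to 50.8% in WT OB and 55.1% to 67.4% in WT BMM, and Runx2 is spread from 3.78% to 100% in WT BMM.

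Genes that work with the RUNX proteins were described by lists. Of 18 cofactors and regulators tested in osteoblasts, 9 were called higher and 1 lower in null, with a median log2 fold change of 0.32 beside 0.00 for all genes, of which 15.5% were called higher and 16.9% lower. Crebbp, an acetyltransferase and coactivator, had 102.7 CPM ± 3.52 in null OB and 70.9 ± 4.23 in WT OB (SD, n = 6), a log2 fold change of 0.53 ± 0.05 (SE). Hdac4, a deacetylase known to restrain RUNX2 in cartilage, was higher by 0.49 ± 0.08, and Smad5, a signal carrier of bone morphogenetic proteins, by 0.45 ± 0.08. With the length and GC offset, 2 of the 18 were called higher and 0 lower. The 1 lower call, Stub1, was lost in 10 of 12 fits that left out 1 library, all but those without WT OB replicate 3 or null OB replicate 6.

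Of 17 other osteoblast transcription factors tested in osteoblasts, 7 were called higher and 2 lower in null, with a median of 0.29, beside 15.5% and 16.9% of all genes and a median of 0.00. Maf fell by 0.55 on the log2 scale (SE 0.09), from 198 CPM ± 16.8 in WT OB to 135 ± 18.6 in null OB (SD, n = 6). Prrx2, a homeobox gene of limb mesenchyme, fell by 0.70 (SE 0.14). Sox9, the master factor of cartilage, rose by 0.80 (SE 0.16), from 114.6 ± 19.7 to 199 ± 47.9 CPM, beside the chondrocyte markers, of which 4 of 5 were called higher. The part of those cells was not tested. With the length and GC offset, 4 were called higher and 3 lower.

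Of 12 matrix and mineral genes known as RUNX2 or SP7 targets, 6 were called higher in null OB and 0 lower, with a median of 0.57, beside 15.5% and 16.9% of all genes and a median of 0.00. Col1a1, the main collagen of bone, ran from 55037 to 71282 CPM in null OB and from 31775 to 46536 in WT OB, with no overlap and a log2 fold change of 0.83 ± 0.10 (SE). Phospho1, a phosphatase that starts mineralisation, rose by 1.55 ± 0.20, from 15.2 ± 3.60 to 44.5 ± 12.7 CPM (SD, n = 6), and Col1a2 rose by 0.58 ± 0.10. Phex, Ibsp and Dmp1 were also called higher. Bglap, Bglap2, Spp1, Alpl, Mmp13 and Tnfrsf11b were not called. With the length and GC offset, 5 were called higher. Without null OB replicate 3, 1 was called lower. Of 5 myeloid genes known as RUNX1 or RUNX3 targets, only Itgax was called, at 0.60 ± 0.19, and that call was lost without WT OB replicate 6 or null OB replicate 1 or 3 and with the length and GC offset.

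**Figure D5:**
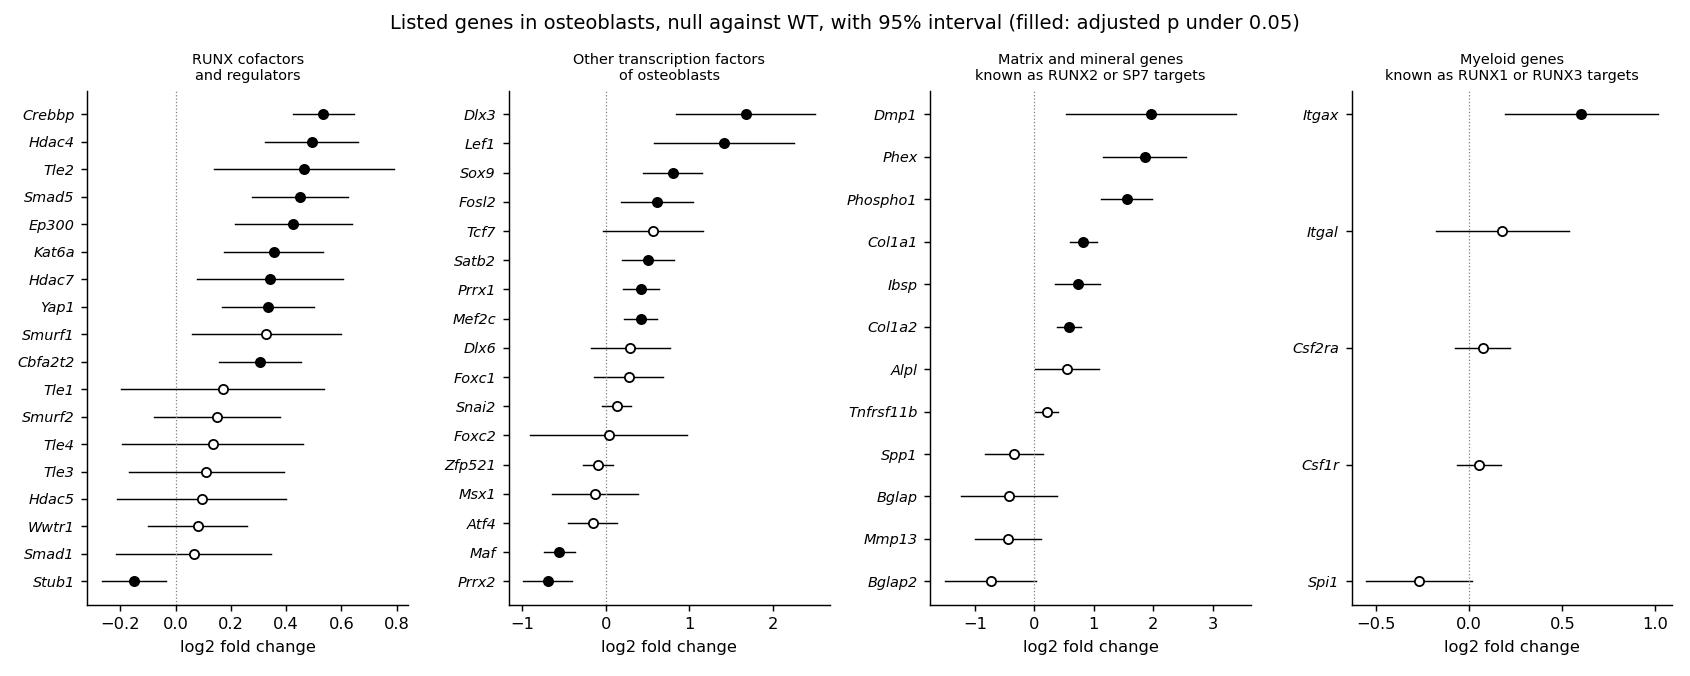
Log2 fold change of null against WT osteoblasts (horizontal axis) for the tested genes of 4 lists, with the 95% interval as a line and filled points for adjusted p under 0.05. Crebbp leads the cofactors at 0.53, and no matrix gene is called lower.

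In macrophages, 4 of 18 cofactors were called higher and 1 lower in null, beside 27% and 25.4% of all genes. Hdac7 rose by 1.06 ± 0.16 (SE), Cbfa2t3, a corepressor of the ETO family, by 1.68 ± 0.41, and Stub1, a ubiquitin ligase, by 0.37 ± 0.05. The count of lower calls was 1 to 4 with 1 library left out, above 1 without WT BMM replicate 3 or null BMM replicate 2, 3 or 6, and 0 with the length and GC offset. Among the myeloid target genes, Itgal (CD11a), an integrin chain, ran from 116 to 149.6 CPM in null BMM and from 29.8 to 52.3 in WT BMM, a log2 fold change of 1.79 ± 0.13. Itgax (CD11c), another integrin chain, ran from 2.39 to 3.20 CPM and from 8.92 to 18.5, a log2 fold change of -2.20 ± 0.17. Neither pair of groups overlapped. Csf2ra, a receptor chain for GM-CSF, fell by 0.27 (SE 0.09). Of the 5 genes, 1 rose and 2 fell, and without null BMM replicate 2, 2 rose and 1 fell.

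The other osteoblast factors were led in macrophages by Mef2c, which fell by 1.87 (SE 0.07) on the log2 scale. Fosl2, an AP-1 subunit, rose by 1.19 ± 0.12 and Atf4, a stress-response factor, fell by 0.88 (SE 0.12). In all, 2 of 6 rose and 3 fell, beside 27% and 25.4% of all genes, with 1 rising in 10 of the 12 fits that left out 1 library (all but those without null BMM replicate 1 or 6). Of 6 matrix genes tested there, 3 rose and 2 fell, beside the same shares of all genes: Spp1 (osteopontin) fell by 1.53 (SE 0.11), and Phospho1 and Col1a2 rose by 3.58 ± 0.32 and 3.35 ± 0.35. Col1a2 stood at 16.1 CPM ± 2.96 in null BMM against 11297 CPM in WT OB, scaled within each cell type. It is itself 1 of the markers in the osteoblast sums given above, so those sums are not a separate observation. The part of osteoblast RNA was not tested. The lower calls among matrix genes were 1 in place of 2 in 8 of 12 fits that left out 1 library, all but those without WT BMM replicate 4 or 5 or null BMM replicate 2 or 3.

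In the RANK-L cultures, 7 of 17 cofactors were called higher and 5 lower in null OC, beside 32.4% and 33.1% of all genes. Tle3, a Groucho corepressor, rose by 2.28 ± 0.16 (SE), Hdac4 by 0.81 ± 0.09 and Hdac7 by 1.53 ± 0.20. Itgal ran from 111 to 144 CPM in null OC and from 15.4 to 20.6 in WT OC, a log2 fold change of 2.89 ± 0.09, and Itgax fell by 1.77 (SE 0.20). Csf1r, the M-CSF receptor, rose by 0.40 ± 0.08. Of the 5 myeloid targets, 2 rose and 3 fell. Of 7 other osteoblast factors, 2 rose (4 without null OC replicate 1) and 2 fell: Fosl2 fell by 1.88 (SE 0.06), Atf4 fell by 1.81 (SE 0.07) and Maf rose by 1.07 ± 0.09. Of 6 matrix genes, 4 rose and 1 fell: Mmp13, a collagenase, rose by 2.30 ± 0.10, Phospho1 fell by 3.29 (SE 0.18), and Col1a1 rose by 3.37 ± 0.31. Col1a1 in null OC ran from 45.3 to 186 CPM. It is itself 1 of the 8 osteoblast markers, so the higher marker sum of these libraries is not a separate observation.

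Over all 36 libraries, the genes with the pattern most like each Runx gene were found by Pearson correlation of log2 CPM, given as a description since libraries of a cell type share their levels. For Runx2 these were Cpt1c (0.979), Cavin1 (0.977) and P3h1 (0.977). For Runx3 they were Cercam (0.962), Ccnd2 (0.961) and Kank2 (0.961), and for Runx1 Fam168a (0.937), Utrn (0.921) and Nisch (0.915). Among the 9 genes, Runx2 followed Sp7 (0.964), Dlx5 (0.955), Twist1 (0.948) and Twist2 (0.928) more closely than Runx3 (0.732), Cbfb (0.729) or Runx1 (0.720). Where counting ignored strand, which is not given in the sources used here, reads of genes that share exon sequence on the other strand cannot be told apart. Overlap was taken over whole gene spans, and shared exons were not looked for. Genes with overlapping spans are Supt3 and the antisense Runx2os1, Runx2os2 and Runx2os3 at Runx2, Gm26626 at Runx1, Gm16224 at Runx3 and Gm29100 at Twist2. The levels of these 4 may carry that uncertainty.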

How the data were processed

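Each library was deposited as a table of transcripts with an estimated count and a TPM value, per the file headers. The submitters' processing notes name kallisto and DESeq2, with no version, and a human build, GRCh38, although the transcript identifiers are mouse. The authors' estimated counts are not whole reads, and the deposited TPM values are per transcript length and carry no depth. Of 88198 transcripts, 97.54% were matched by identifier to GENCODE M21 (GRCm38), and 88.91% of those had the annotated length. Unmatched transcripts, with 0.6292% to 0.9743% of the counts of a library, were left out.

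Estimated counts were summed per gene and rounded. After filterByExpr and TMM scaling, genes were tested in edgeR 4.0.16 (quasi-likelihood F test, robust, R 4.3.3), and the Benjamini-Hochberg adjustment covered every gene in the fit, with a threshold of 0.05. Genotype was fitted on the 12 libraries of a cell type, RANK-L and its interaction on 24, and comparisons between cell types on 36. The edgeR test and the permutation test were tested on simulated data. Bounds set at 3 counts cover counting error only. For the start of transcription, annotated 5′ ends within 2000 bases of the next formed a group, and the share of TPM was tested with an exact permutation test in SciPy 1.17.1.

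The 9 genes and the lists (19 cofactors and regulators, 18 other osteoblast factors, 13 matrix genes, 6 myeloid genes, and markers of 9 cell types) were chosen with earlier results of these data known. All 8 osteoblast markers are also among the 13 matrix genes, so the marker sum and the matrix list are not separate observations. A listed gene was named with values where it was among the 3 with the smallest p in its list past the threshold in a genotype comparison. For other genes the text names, the call of the list is given. Marker lists not mentioned elsewhere summed as follows in OB: adipocyte 6.89 to 15.9 CPM, endothelial 76.2 to 190 CPM, neutrophil 0.486 to 2.54 CPM and muscle 7.45 to 20.9 CPM, with overlap between genotypes in each. In the marrow groups, 2 of these lists separated the genotypes without overlap in OC, neutrophil (5.88 to 8.49 CPM in null, 0.0492 to 0.321 in WT) and adipocyte (11.1 to 18.5 in null, 1.42 to 2.78 in WT), and neutrophil did in BMM. These sums rest on few genes. Of the 5 adipocyte markers, 4 held at most 3 counts in every library of both OC groups, all but Fabp4. Of the 7 neutrophil markers, 5 held at most 3 counts in null OC and null BMM, and 6 in WT OC and WT BMM.

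Alternatives were RLE scaling, no filter, DESeq2 1.42.0, a block for the replicate number, an average transcript length offset, an offset for the lowess trend (span 0.3) with length and GC content, both together with the block, a fit of all 36 libraries, and each library left out in turn. For shares they were the share of estimated counts, a gap of 500 bases, and a minimum of 50 counts, and for levels the median, CPM and a composition scaling. Chosen after seeing the data were shares over transcripts of at least 1000 bases and the limit of the cell type interactions to genes that passed the filter in each cell type.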

Additional observations from a re-analysis of the deposited data

Results flagged for a closer look

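The genotype difference itself differed between cell types or with RANK-L in 8 of 12 interaction tests over Runx1, Runx2, Runx3 and Cbfb (edgeR, adjusted over all genes). Of all genes, 51.4% were called in the interaction with RANK-L, 55.2% for OB minus OC and 45.9% for OB minus BMM. With RANK-L, the interaction (the response in null minus that in WT, log2) was 0.63 for Runx1, -0.70 for Runx2 and 2.73 for Runx3. Between osteoblasts and the RANK-L cultures, the genotype difference differed by 0.47 for Runx1, 0.80 for Runx2 and -1.84 for Runx3. Between osteoblasts and macrophages it differed by 1.09 for Runx1 and 0.88 for Runx3. The null libraries labelled OC held few osteoclast markers, so each comparison with them sets unlike cultures side by side.

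In 1 of 44 groups of 6 libraries checked, a single library stood apart: the upstream share of Runx1 in WT OB replicate 4 was 42.4%, below the other 5 at 47.7% to 50.8%. Chance gives such a library in about 1 of 20 groups. The Runx3 shares were not among the 44 groups. There WT OC replicate 5 stood at 60.5% with a group median of 100%.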

How the results depend on the processing

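Most values held under the other settings: 500 of 572 for single genes and list counts, and 217 of 243 for numbers of genes called, upstream shares and group orders. A single gene or a share held where it kept its direction and call. A count held where it stayed close to the main count, so it could still change somewhat. In osteoblasts, the length and GC offset left 1 of the 9 genes called and 2289 of all genes, and 1979 with the block as well. In OC, 1 was called in place of 2 without the filter, with the block and with the average length offset, under which Runx1 turned to -0.10. For null OC against null BMM, 0 were called in place of 1 without the filter, with the block, with the length and GC offset and with both, and both left 1016 genes in all. Under the length and GC offset, alone and with the block, Runx1 there turned to -0.017 and -0.0099 and Cbfb to 0.01705 and 0.0181, all near 0. Runx1 in WT OB against WT BMM turned to -0.43 with the average length offset. In the difference of genotype effects between OB and OC, counting all genes tested gave 5 in place of 3, but these include genes near 0 in marrow cells. Between OB and BMM, Cbfb turned to 0.00037 with RLE scaling, 0.10 with the average length offset and 0.0030 with both offset and block, and Runx2 to -0.30 and -0.29 with the length and GC offset without and with the block.

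Upstream shares of Runx1 in WT OB against WT BMM weakened to -10.1 points as a share of counts and to -6.16 points over transcripts of at least 1000 bases, and against WT OC to -3.14 points over the latter. Near 0, Runx3 turned to -0.0664 (null against WT OC) and -0.129 (WT OB against WT OC) as a share of counts, and over the longer transcripts to -1.62, -1.80 and 1.31 (WT OC against WT BMM), and Runx2 in WT OB against WT OC to -0.976. The order of the 6 groups by level kept 1 place for Cbfb by CPM and by composition scaling, and 1 for Runx1 by CPM. The cause was not tested in any of these.

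Replicate numbers are shared between groups, but same-numbered libraries did not deviate together (correlations from -0.131 to 0.103, with 1 pair of one comparison over 0.1), so the pairing is not supported. With the replicate number as a block, 4085 genes in place of 4420 were called in OB and Sp7 was called (0.59, adjusted p = 0.0347), while Runx2 in BMM was not (0.48, adjusted p = 0.0773). Paired by number, the Runx1 shares differed by -15.9 and -8.26 points (adjusted p = 0.469 for both), but pairing cannot change a difference of means and 6 pairs leave the exact test little room below the threshold, so these values say nothing about stability.

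With each library left out in turn, 1 to 2 genes were called in OC, and 0 to 1 for null OC against null BMM, with 810 to 2143 of all genes. There Runx1 ran from -0.0062 to 0.10 and Cbfb from -0.106 to 0.01804. Cbfb ran from -0.10 to 0.00053 in BMM and from -0.0763 to 0.0603 for OB minus BMM. The Runx1 shares ran from -17.6 to -14.8 points in WT OB against WT BMM and from -9.36 to -7.19 against WT OC. The threshold was missed in 5 and 10 of 12, where fewer libraries raise the smallest possible p, so the 5 say nothing about stability. The other shares ran, for Runx2, from -5.36 to 13.9 (WT OC against WT BMM), -1.50 to 17.7 (WT OB against WT BMM) and -0.501 to 7.73 (WT OB against WT OC), and for Runx3 from -0.646 to 1.31 (null against WT BMM), -1.62 to 6.58 (null against WT OC), -6.59 to 1.31 (WT OC against WT BMM), -1.80 to 0.471 (WT OB against WT BMM) and -1.80 to 6.10 (WT OB against WT OC).

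Depth limits Msx2 (at most 26 counts), Runx2 in BMM and the start shares of Runx2 and Runx3 in marrow cells.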
